A study of Mus musculus with 102 samples.

Results

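The comparison described here is that of TET triple knockout (TTKO) mouse embryonic stem cells 4 days after Cre protein transduction with the same cells before transduction, read by amplicon bisulfite sequencing. It takes 6 of the 102 samples of the series, 3 labelled Cre day 4 and 3 labelled non-transduced day 0. Every CpG with a methylation level in all 6 samples was used, which gave 366 of the 405 CpGs in the amplicon table and 56 of its 65 amplicons. The 39 remaining CpGs are all the CpGs of 9 amplicons (4 NP-specific LMRs, 3 CTCF-bound LMRs, 1 REST-bound LMR and 1 constitutive LMR), because 34 CpGs had no level in Cre replicate 1 and 11 had none in Cre replicate 3. Over the levels these 9 amplicons did have, 6 had a lower mean at Cre day 4 and 3 a higher one.

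DNA methylation in mammals sits mainly on the cytosine of CpG dinucleotides. DNMT3A and DNMT3B methylate CpGs de novo, DNMT1 copies the mark onto the new strand after replication, and the TET dioxygenases oxidise 5-methylcytosine and so open a path back to unmodified cytosine. In cells without TET activity, removal of the DNMT3 enzymes leaves copying by DNMT1, with passive loss wherever copying is incomplete. In embryonic stem cells, unmethylated regions (UMRs) are mostly CpG-rich promoters, low-methylated regions (LMRs) are distal elements occupied by transcription factors such as REST, a repressor of neuronal genes, or CTCF, an insulator protein, and fully methylated regions (FMRs) make up most of the rest of the genome.

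All samples came from C57BL6/J embryonic stem cells whose Dnmt3a and Dnmt3b alleles carry loxP sites around catalytic exons on both chromosomes, and the TTKO line is a single clone with mutations in Tet1, Tet2 and Tet3 made with CRISPR. The day 0 samples are labelled Dnmt3a/3b intact. The Cre samples were treated with 1 µM Cre protein and are labelled Dnmt3a/3b catalytic dead, and 3 mock samples of day 4, treated with the Cre buffer alone, are labelled Dnmt3a/3b intact. Day 0 cells grew on feeder cells, whereas Cre and mock cells were moved to feeder-free plates after transduction, so that against day 0 the Cre treatment and the change of culture cannot be told apart, and against the mock samples of the same day they can. The share of feeder DNA in the day 0 samples was not measured in these files. The methods state that excision was not complete in all cells, and neither Dnmt3 nor Tet loci are among the amplicons, so the genotype was not checked in these files. The methods speak of 3 biological replicates without saying how far the cultures were kept apart, the labels give a number alone, and p-values measure the spread between these samples.

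Reads summed over all CpGs ranged from 2304910 to 2496768 per day 0 sample, from 1892557 to 2559243 per Cre sample and from 3483274 to 3956530 per mock sample. Median coverage per CpG was 3850 to 4140, 2556 to 4232 and 4566 to 7708 reads, respectively, and no level rested on fewer than 100 reads. These are PCR reads without molecular identifiers, so counts overstate the number of molecules and any counting error is a lower limit. Replicates of a group correlated across the 366 CpGs with Pearson's r between 0.971 and 0.993, and every pair differed by far more than sampling noise, with a mean chi-square per CpG of 28.3 to 192.

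The sequences on which the comparison turns are those of 4 amplicons with at least 20% methylation at day 0 that passed the amplicon test, of the REST-bound amplicon with the largest relative change among those that passed, and of 2 methylated amplicons whose levels were nearly equal on both days. Each is the + strand of mm9 from the first to the last CpG tested with 10 bases on either side, in lower case, with every CpG in capitals.
LMR23, chr13:107863455-107863636: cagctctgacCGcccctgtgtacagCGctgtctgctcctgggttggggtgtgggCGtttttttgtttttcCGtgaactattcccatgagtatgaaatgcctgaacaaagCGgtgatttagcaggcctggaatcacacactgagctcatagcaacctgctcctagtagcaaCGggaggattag
LMR38, chr3:65259955-65260060: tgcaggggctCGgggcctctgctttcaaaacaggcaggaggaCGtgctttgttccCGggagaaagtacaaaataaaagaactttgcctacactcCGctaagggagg
REST75, chr5:150291055-150291277: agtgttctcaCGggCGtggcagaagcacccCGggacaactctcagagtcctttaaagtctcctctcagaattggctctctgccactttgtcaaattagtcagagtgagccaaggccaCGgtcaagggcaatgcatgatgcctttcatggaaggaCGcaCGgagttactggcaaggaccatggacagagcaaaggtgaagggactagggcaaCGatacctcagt
REST61, chr4:153281749-153282018: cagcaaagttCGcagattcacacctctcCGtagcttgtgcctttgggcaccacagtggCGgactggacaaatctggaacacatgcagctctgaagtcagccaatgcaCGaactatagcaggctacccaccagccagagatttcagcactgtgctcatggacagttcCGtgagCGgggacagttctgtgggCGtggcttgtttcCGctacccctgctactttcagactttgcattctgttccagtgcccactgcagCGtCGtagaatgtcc
REST76, chr7:145275834-145275980: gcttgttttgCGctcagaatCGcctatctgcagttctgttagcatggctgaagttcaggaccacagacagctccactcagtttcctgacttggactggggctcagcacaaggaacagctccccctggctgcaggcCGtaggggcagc
FMR8, chr12:112492608-112492772: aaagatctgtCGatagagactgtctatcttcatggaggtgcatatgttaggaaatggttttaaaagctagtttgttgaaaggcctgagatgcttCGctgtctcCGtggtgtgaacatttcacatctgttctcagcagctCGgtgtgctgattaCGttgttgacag
metIsland21, chrX:5659117-5659288: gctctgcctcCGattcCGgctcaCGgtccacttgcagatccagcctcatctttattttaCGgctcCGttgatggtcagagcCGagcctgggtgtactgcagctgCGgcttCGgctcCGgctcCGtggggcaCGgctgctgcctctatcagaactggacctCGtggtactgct
The first 5 lie between annotated protein-coding genes. FMR8 lies in an intron of Traf3, which encodes a signalling adaptor, and metIsland21 lies in a coding exon of AU022751.

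Averaged over the 366 CpGs, methylation was lower at Cre day 4 than at day 0. The 3 day 0 samples had means of 40.7%, 40.0% and 39.8%, the 3 Cre samples 36.1%, 37.1% and 38.1%, and the 3 mock samples 39.1%, 41.4% and 41.9%. All Cre samples lay below all samples of either other group, while the mock samples lay on both sides of day 0. The Cre mean of 37.1% ± 0.977 (SD, n = 3) was 3.04 percentage points below the day 0 mean of 40.1% ± 0.482 (exact permutation of samples, two-sided, p = 0.1, and 3 against 3 cannot give less). It was 3.68 points below the mock mean of 40.8% ± 1.5 (exact permutation p = 0.1), and mock and day 0 differed by 0.636 points over the same CpGs (exact permutation p = 0.5). At the 201 CpGs that started from 20% or more, Cre samples kept 94.0% ± 2.11 of the day 0 level and mock samples 102% ± 3.75.

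The difference was negative at most CpGs and varied widely among them. Of the 366 CpGs, 298 had a lower mean level at Cre day 4 and 68 a higher one, with a median difference of -2.04 percentage points and a range from -26.6 to 13.0. The 3 Cre samples lay wholly below the 3 day 0 samples at 116 CpGs (31.7%) and wholly above at 4 (1.09%). In the mock samples the same counts were 48 below (12.0%) and 32 above (8.02%) of 399 CpGs. Cre samples lay below all mock samples at 73 CpGs (19.9%) and above at 7 (1.91%).

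Because the CpGs of an amplicon are read in the same molecules, reads were also summed per amplicon and tested there with a quasi-binomial model of methylated and unmethylated reads. Of 56 amplicons, 52 had a lower level at Cre day 4, and 15 (26.8%) fell at an adjusted p under 0.05, with none rising. The median log2 odds ratio over all 56 was -0.38. Cre samples lay wholly below day 0 in 24 amplicons (42.9%). The 15 comprised 7 of 9 UMRs, 5 of 17 REST-bound LMRs, 2 of 12 other constitutive LMRs and 1 of 6 LMRs specific to embryonic stem cells, and none of the 3 LMRs specific to neuronal progenitors, the 5 FMRs, the 2 CTCF-bound LMRs, the methylated island or the methylated UMR. The UMRs stood at 2.68% to 10.1% at day 0. The methods added spike-in DNA to control bisulfite conversion, which was not examined here. Among the constitutive LMRs, the windows of LMR24 and LMR35 overlap by 291 bases, and they count as 2 amplicons. Limma on log2 odds called 19 amplicons. Without Cre replicate 1 the quasi-binomial count was 8.

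**Figure D1:**
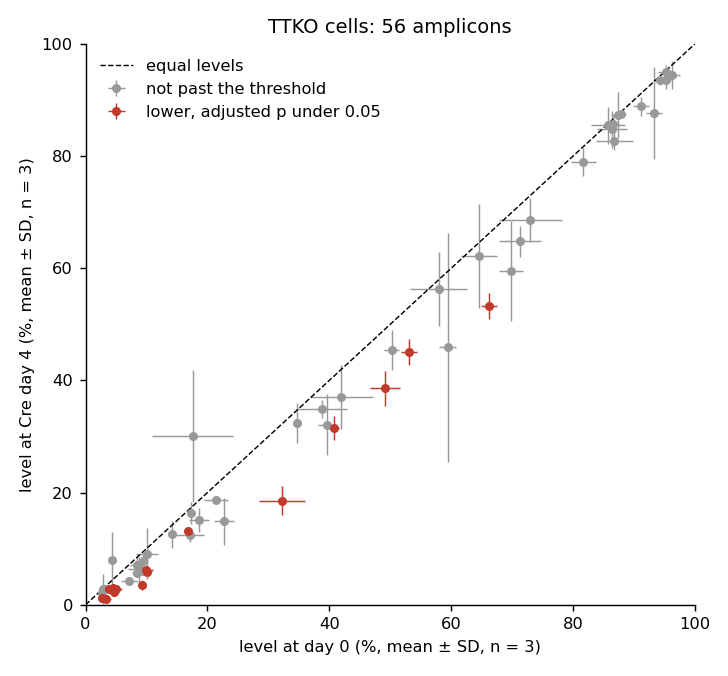
Methylation level of 56 amplicons at day 0 (horizontal, %) and at Cre day 4 (vertical, %), each point 1 amplicon with the mean and SD of 3 samples, and the broken line marking equal levels. The 15 amplicons that passed the test, in red, lie under the line at levels below 70%, and the amplicons above 80% lie close to it.

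The 5 amplicons with at least 20% methylation at day 0 that fell were 2 constitutive LMRs, 2 REST-bound LMRs and 1 LMR specific to embryonic stem cells, of 29 amplicons at that level with 3 or more CpGs. The first 4 are described here. LMR23, with 6 CpGs, lies 41422 bases from the start of 3830408C21Rik. Its level was 65.2%, 67.7% and 65.8% at day 0, and 54.8%, 54.4% and 50.6% at Cre day 4. The mock samples were at 57.4%, 69.4% and 62.7%, so that every Cre sample was below every day 0 and mock sample. LMR23 lost 19.6% of its day 0 level (log2 odds ratio -0.75 ± 0.08 SE, quasi-binomial adjusted p = 0.00163).

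Both REST-bound amplicons of this group lost a similar part of their methylation. REST61, with 9 CpGs tested, lies 49339 bases from the start of A430005L14Rik. It was at 41.6%, 40.0% and 40.7% at day 0, at 32.5%, 33.1% and 29.1% at Cre day 4, and at 39.7%, 38.0% and 41.5% in the mock samples. No Cre sample reached the lowest day 0 or mock sample, and the loss was 22.6% of the day 0 level (log2 odds ratio -0.58 ± 0.11 SE, quasi-binomial adjusted p = 0.00833).

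REST75, with 6 CpGs tested, lies 17870 bases from 4930588N13Rik, the nearest gene, and 39988 bases from the nearest annotated start, that of Wdr95. It was at 52.0%, 47.3% and 48.3% at day 0, at 41.7%, 38.6% and 35.4% at Cre day 4, and at 46.1%, 51.5% and 47.2% in the mock samples. Again the Cre samples were the 3 lowest, with 21.6% of the day 0 level lost (log2 odds ratio -0.65 ± 0.12 SE, quasi-binomial adjusted p = 0.00901).

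LMR38, with 4 CpGs, lies 51130 bases from 4931440P22Rik, the nearest gene, and 63420 bases from the nearest annotated start, that of Ssr3. It was at 54.0%, 53.6% and 51.7% at day 0, at 44.8%, 47.4% and 42.9% at Cre day 4, and at 50.7%, 48.9% and 55.7% in the mock samples. All Cre samples were below all samples of the other groups, and 15.1% of the day 0 level was lost (log2 odds ratio -0.47 ± 0.08 SE, adjusted p = 0.00833 in the quasi-binomial model). Leaving out Cre replicate 1 took its adjusted p to 0.0755.

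Against the mock samples of the same day, none of 56 amplicons passed the adjusted threshold in the quasi-binomial model (0%, lowest adjusted p = 0.0955), 17 had an unadjusted p under 0.05, all of them lower at Cre day 4, and limma called 2. Of the 15 amplicons that fell against day 0, 7 were among these 17. Both comparisons share the 3 Cre samples, so this overlap is partly fixed by the choice of amplicons with low Cre levels. All 4 amplicons described above were among the 7. Their log2 odds ratios against mock were -0.51 for LMR23 (unadjusted p = 0.0327), -0.49 for REST61 (p = 0.00836), -0.56 for REST75 (p = 0.00568) and -0.42 for LMR38 (p = 0.0236, all from the quasi-binomial model). The mock samples spread more than the day 0 samples did, with a median dispersion over amplicons of 111 in this comparison and of 50.8 in that of Cre with day 0. Dispersion also grows with read depth, which was higher in the mock samples, so these values do not measure spread alone. Mock against day 0 gave 3 of 64 amplicons lower (4.69%) and none of 399 CpGs (0%) in the quasi-binomial model. Among those CpGs, 31 were lower and 21 higher at an unadjusted p under 0.05, and limma called none. None of the 4 was among the 3.

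**Figure D2:**
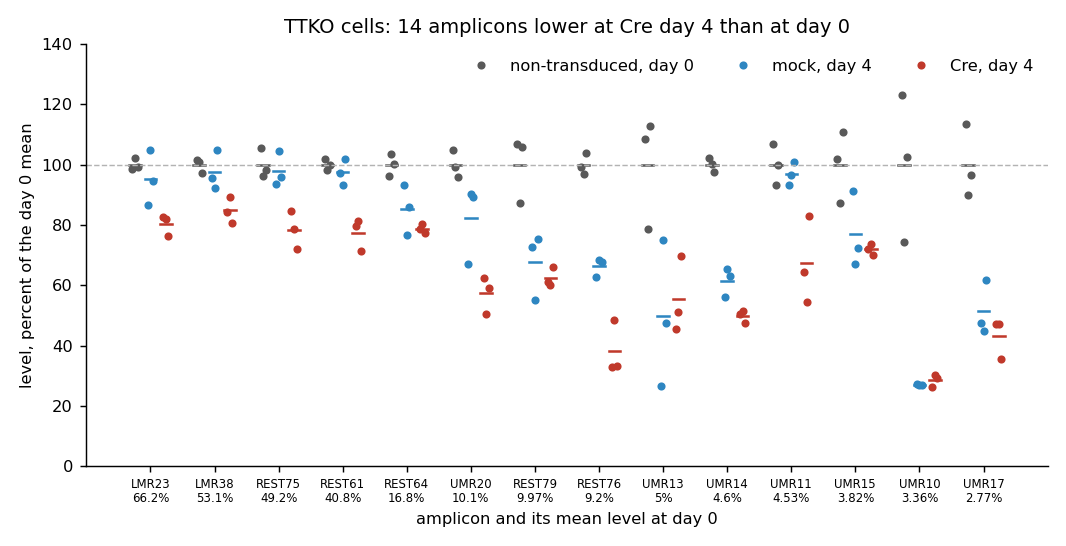
Level of each sample as a percentage of the day 0 mean (vertical) in 14 of the 15 amplicons that fell, ordered by their day 0 level, which is written under each name, with bars at the group means of 3 samples. In the 4 amplicons at the left the Cre samples lie below the day 0 and mock samples, and in several of the amplicons at the right the mock samples lie below day 0 as well.

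The other 10 amplicons that fell stood between 2.77% and 16.8% at day 0, and at several of them the mock samples were low too. REST76 was at 9.15%, 8.91% and 9.56% at day 0, at 3.04%, 4.47% and 3.08% at Cre day 4, and at 5.78%, 6.31% and 6.25% in the mock samples. The 3 groups were separate there, with mock in the middle. REST76 lost 61.6% of its day 0 level (log2 odds ratio -1.49 ± 0.19 SE, adjusted p = 0.00286), with an adjusted p of 0.0527 for mock against day 0 and an unadjusted p of 0.0127 for Cre against mock, all in the quasi-binomial model. UMR11, in an intron of 1810063B07Rik, was at 4.83%, 4.23% and 4.53% at day 0, at 2.91%, 2.47% and 3.76% at Cre day 4, and at 4.22%, 4.37% and 4.57% in the mock samples. It was the one UMR with an unadjusted p under 0.05 against mock (quasi-binomial p = 0.00763, adjusted p = 0.0205 against day 0). 

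The 3 amplicons that also fell in the mock samples lie within 1000 bases of an annotated start, as do UMR11, UMR13 and UMR15. When any 1 sample was left out, only 0 or 1 amplicon passed for mock against day 0. UMR14 covers the promoter-proximal part of B3galt4, a galactosyltransferase gene, and was at 4.60% ± 0.107 (SD, n = 3) at day 0, 2.30% ± 0.0947 at Cre day 4 and 2.83% ± 0.224 in the mock samples. UMR17 lies 333 bases from the start of Hdac2, which encodes a histone deacetylase, and went from 2.77% to 1.20% at Cre day 4 and to 1.42% in the mock samples. UMR10, in an intron of Agfg1, went from 3.36% ± 0.825 to 0.963% ± 0.0672 at Cre day 4 and to 0.911% ± 0.00382 in the mock samples. Adjusted p-values of the quasi-binomial model were 0.000517, 0.00286 and 0.0118 for Cre against day 0, and 0.0111, 0.0438 and 0.0438 for mock against day 0. For Cre against mock the unadjusted p was 0.0567, 0.232 and 0.821.

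REST79, REST64, UMR13, UMR15 and UMR20 made up the rest. REST79 went from 9.97% ± 1.10 to 6.22% ± 0.317 with mock at 6.76% ± 1.09 (quasi-binomial adjusted p = 0.00779 against day 0). REST64, with 14 CpGs, went from 16.8% ± 0.592 to 13.2% ± 0.271 with mock at 14.3% ± 1.37 (adjusted p = 0.0300). It is 91.0% identical over 266 bases to REST69, which went from 8.42% to 5.71% without passing (adjusted p = 0.0746), and the assignment of reads between these copies was not tested. UMR20 went from 10.1% to 5.77% with mock at 8.28%, UMR13 from 5.0% to 2.78% with mock at 2.49%, and UMR15 from 3.82% to 2.75% with mock at 2.94% (quasi-binomial adjusted p = 0.0202, 0.0344 and 0.0407). When each of the 6 samples was left out in turn, REST61, REST75, REST76, REST79, LMR23, UMR14 and UMR17 passed in all 6 fits, LMR38 and UMR10 in 5, UMR20 in 3, UMR11 and UMR13 in 2, and REST64 and UMR15 in 1.

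By region class, the largest relative differences were in the classes with the lowest starting levels. The 93 CpGs of 17 REST-bound LMRs went from 20.5%, 19.4% and 20.5% at day 0 to 15.6%, 16.3% and 16.5% at Cre day 4, while the mock samples were at 19.0%, 20.0% and 20.6%. Cre samples were the 3 lowest, 3.98 percentage points below day 0, which is 19.8% of the starting level. The 82 CpGs of 9 UMRs were at 4.61% ± 0.201 at day 0 and at 2.94% ± 0.223 at Cre day 4, a difference of 36.3% of the starting level, but the mock samples were at 3.37% ± 0.287, or 73.0% of day 0. The 64 CpGs of 6 ES-specific LMRs were at 49.2% ± 0.699 and 45.8% ± 1.35, 6.83% less, with mock at 53.2% ± 2.85. The 22 CpGs of 5 FMRs were at 86.6% ± 0.542 and 84.6% ± 0.905, 2.39% less, with mock at 88.6% ± 0.511. In each of these 4 classes the Cre samples lay below all day 0 samples (two-sided exact permutation p = 0.1, adjusted 0.225 over 9 classes).

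In the other classes Cre and day 0 samples overlapped. The 55 CpGs of 12 constitutive LMRs were at 61.0% ± 1.32 at day 0 and 56.4% ± 3.76 at Cre day 4, where replicate 3 was at 60.7% and the others at 53.6% and 54.9% (exact permutation p = 0.2). The 11 CpGs of 2 CTCF-bound LMRs were at 36.7% ± 4.17 and 31.0% ± 4.97 (exact permutation p = 0.2). The 21 CpGs of 3 LMRs specific to neuronal progenitors, which are methylated in embryonic stem cells, were at 93.6% ± 0.600 and 92.3% ± 1.51 (exact permutation p = 0.3). The methylated island and the methylated UMR, 1 amplicon each, differed by -0.16 and 0.06 percentage points. With only CpGs of at least 20% at day 0, the share lost was 15.9% in 29 CpGs of REST-bound LMRs, 12.2% in 7 CpGs of CTCF-bound LMRs, 8.14% in 49 CpGs of constitutive LMRs and 6.84% in 53 CpGs of ES-specific LMRs. Against the mock samples Cre levels of the same CpGs were lower by 15.6%, 14.8%, 8.43% and 12.5%, so constitutive and ES-specific LMRs changed order. These differences between classes were not tested.

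**Figure D3:**
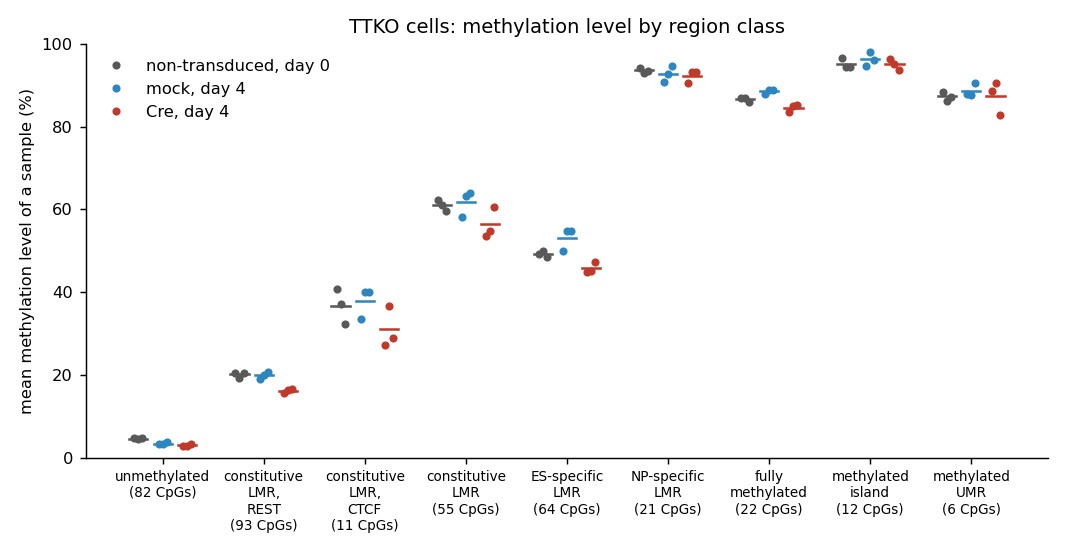
Mean methylation level of each sample (vertical, %) in 9 region classes for day 0, mock day 4 and Cre day 4, 3 points per group with a bar at their mean. Cre samples lie below day 0 and mock in REST-bound, ES-specific and fully methylated amplicons, while mock lies with Cre in the unmethylated class.

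The difference varied with the starting level, being largest in percentage points at intermediate methylation. It was -1.63 points in the 127 CpGs under 10% at day 0, -3.45 in the 61 CpGs from 10% to 30%, -6.35 in the 42 from 30% to 50%, -7.85 in the 25 from 50% to 70%, -2.76 in the 51 from 70% to 90% and -1.54 in the 60 at or above 90%. As a share of the day 0 level this was 38.7%, 18.7%, 16.1%, 12.7%, 3.39% and 1.63%. All Cre samples lay below all day 0 samples in each range but that from 70% to 90% (exact permutation p = 0.3 there and 0.1 elsewhere, adjusted 0.12 over 6 ranges for the latter). Under 10% the mock samples kept 82.3% ± 13.2 of the day 0 level. Ranges set on day 0 levels use a group of the comparison itself. Set on the mock levels instead, they gave -1.74, -4.21, -4.88, -7.88, -3.08 and -1.22 points. In the day 0 ranges, Cre levels minus mock levels were -0.88, -5.61, -9.99, -8.79, -3.46 and -1.26 points. The median log2 odds ratios of Cre over day 0 were -0.80, -0.43, -0.44, -0.40, -0.21 and -0.27, so on that scale intermediate methylation did not stand out. Differences between ranges were not tested.

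**Figure D4:**
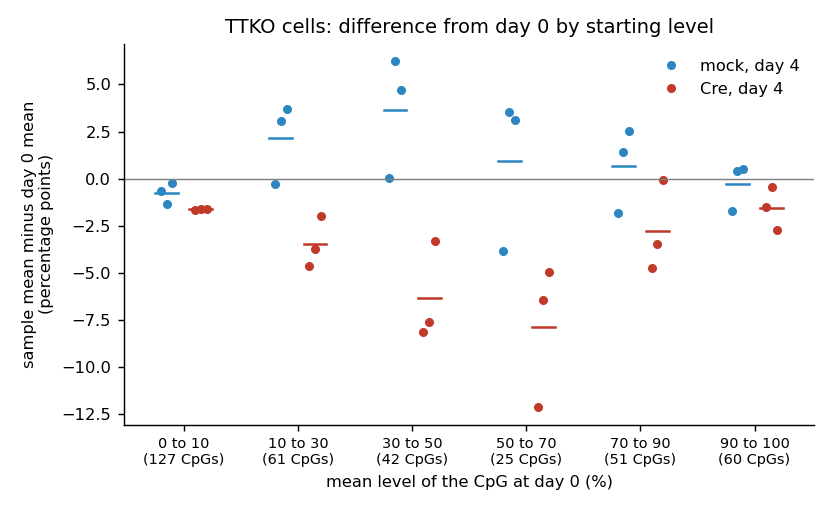
Difference of each mock and Cre sample from the day 0 mean (vertical, percentage points) for CpGs grouped by their day 0 level (horizontal, %), with bars at the means of 3 samples and a line at 0. The Cre means reach -7.85 points between 50% and 70%, and the mock means are above 0 in the 4 ranges from 10% to 90%.

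Few single CpGs passed the test. Of the 366 CpGs, 1 fell (0.273%) and none rose in the quasi-binomial model, 83 had an unadjusted p under 0.05, of which 81 were lower at Cre day 4, and limma called 2. The median log2 odds ratio was -0.47 against -0.01 for mock and day 0. The CpG that fell is at chr13:107863525 in LMR23. It was at 64.1%, 66.7% and 65.7% at day 0, at 46.1%, 40.7% and 37.0% at Cre day 4, and at 56.1%, 71.2% and 60.2% in the mock samples, on at least 4797 reads in each of the Cre and day 0 samples. It lost 37.0% of its day 0 level (log2 odds ratio -1.38 ± 0.15 SE, adjusted p = 0.0123), but it no longer passed without any 1 of the day 0 samples or Cre replicate 2. The largest difference in percentage points, -26.6, was at the first CpG of REST75, chr5:150291065, which was at 50.2%, 45.4% and 52.3% at day 0 and at 31.4%, 25.8% and 10.9% at Cre day 4 without passing (quasi-binomial adjusted p = 0.0669). In LMR23, the CpG 16 bases before the one that fell, chr13:107863509, was the least methylated of that amplicon, at 25.0%, 24.5% and 23.1% at day 0 and 16.2%, 15.4% and 4.31% at Cre day 4 (adjusted p = 0.116 in the quasi-binomial model). Against mock, none of 366 CpGs passed (0%), 52 were lower and 3 higher at an unadjusted p under 0.05, and limma called none.

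**Figure D5:**
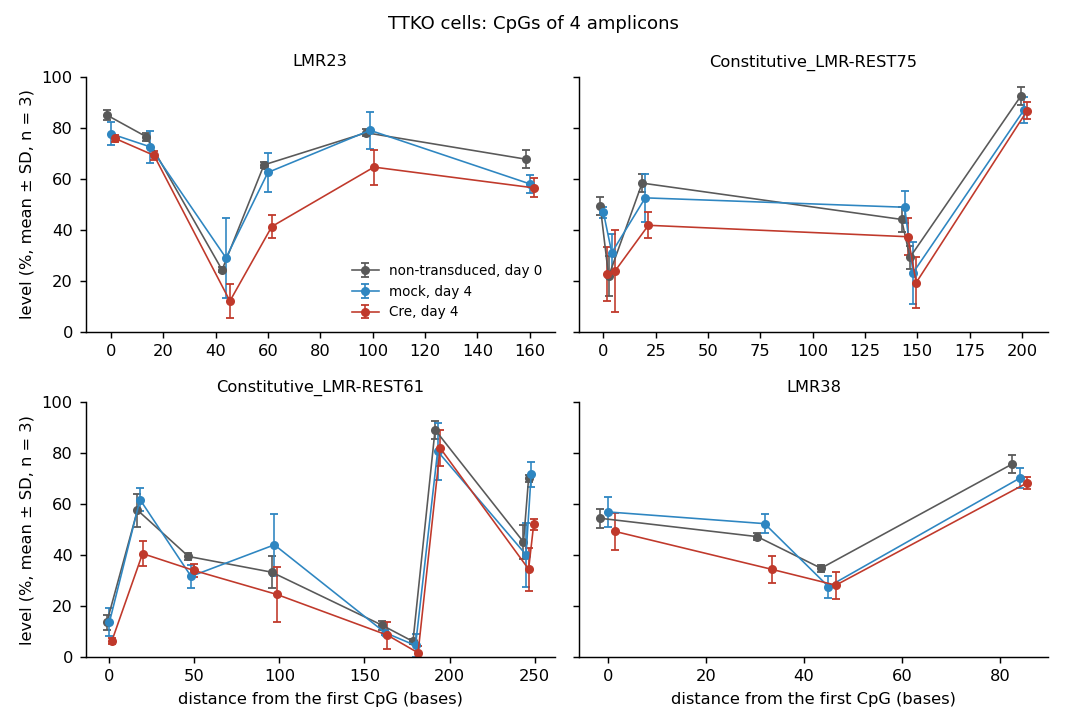
Methylation level (vertical, %, mean ± SD, n = 3) of each CpG along 4 amplicons, by distance in bases from the first CpG, for day 0, mock day 4 and Cre day 4. The Cre mean lies below the day 0 mean at nearly every CpG, by the most at the first CpG of REST75 (49.3% and 22.7%), and CpGs a few bases apart can differ widely within a sample group.

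Outside LMR23, the CpGs with the largest relative difference among those of at least 20% at day 0, given for 5 of the classes, did not pass the test. They are shown with 30 bases on either side on the + strand of mm9, with the CpG itself in capitals. Some CpGs below 20% at day 0 lost a larger part of their level.
REST80, chr9:99464269-99464330: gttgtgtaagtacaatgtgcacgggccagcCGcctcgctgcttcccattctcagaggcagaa
CTCF53, chr1:38844427-38844488: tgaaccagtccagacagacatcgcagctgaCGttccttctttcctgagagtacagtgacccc
UMR20, chr16:18036986-18037047: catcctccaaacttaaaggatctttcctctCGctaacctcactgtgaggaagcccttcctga
FMR5, chr11:68769111-68769172: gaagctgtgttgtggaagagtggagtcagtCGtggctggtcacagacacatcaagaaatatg
NP-specific LMR37, chr13:73207810-73207871: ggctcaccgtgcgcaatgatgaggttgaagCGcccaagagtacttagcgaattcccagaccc
The REST80 CpG, in an intron of Armc8, was at 27.3%, 22.3% and 21.6% at day 0 and at 3.41%, 6.02% and 2.29% at Cre day 4. Its mock samples were at 22.6%, 49.1% and 23.3%, and 83.5% of the day 0 level was lost, the most of any CpG named here (log2 odds ratio -2.85 ± 0.70 SE, quasi-binomial adjusted p = 0.0763). Over its 9 CpGs the amplicon went from 18.7% to 15.2%, 6 CpGs lower and 3 higher, and changes of single CpGs ranged from a loss of 91.7% to one of -55.1%, that is a gain, with an adjusted p of 0.197 for the amplicon in the quasi-binomial model. The CTCF53 CpG went from 43.2%, 35.5% and 41.2% to 20.8%, 33.1% and 19.5%, a loss of 38.7% (adjusted p = 0.135). The UMR20 CpG lost 34.8%, the FMR5 CpG, in an intron of Arhgef15, 10.7% and the NP-specific LMR37 CpG 7.68% (quasi-binomial adjusted p = 0.116, 0.304 and 0.138). The largest loss was 2.74% in the methylated UMR and 2.68% in the methylated island.

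Among the 29 amplicons of 3 or more CpGs that started from at least 20%, CTCF53 and LMR51 had large relative differences without passing. CTCF53 was at 24.4%, 22.6% and 21.2% at day 0, and at 14.6%, 19.2% and 10.9% at Cre day 4, a loss of 34.5% (quasi-binomial adjusted p = 0.0763). LMR51, at an exon and intron of St7, was at 60.9%, 58.1% and 59.3% at day 0 and at 23.7%, 50.2% and 63.9% at Cre day 4, so that 1 Cre sample was above day 0 and 1 far below (adjusted p = 0.342). The 5 amplicons with the smallest differences from day 0 were methylated throughout. The methylated UMR beside Tuba3a, an alpha-tubulin gene, was at 87.3% ± 1.11 and 87.4% ± 4.08. MetIsland21 was at 95.2% ± 1.19 and 95.1% ± 1.25, LMR16 in Cradd at 85.7% and 85.5%, FMR8 at 87.9% ± 0.765 and 87.6% ± 0.472, and NP-specific LMR41 at 94.3% ± 1.07 and 93.6% ± 0.916. In FMR8 the mock samples were higher, at 88.7%, 94.2% and 89.8%, above all Cre samples, which lay 3.31 percentage points lower on average. None of the 13 amplicons at or above 80% at day 0 passed, and their median loss was 1.72%, against 13.8% over all 56, while on the scale of the model the median log2 odds ratios were closer, at -0.28 and -0.38. 

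Only 4 amplicons had a higher mean at Cre day 4, and none passed. LMR81, 78 bases from the start of Fggy, was at 25.3%, 13.5% and 14.0% at day 0, at 26.5%, 20.6% and 43.3% at Cre day 4 and at 49.4%, 25.3% and 43.1% in the mock samples (quasi-binomial adjusted p = 0.148 for Cre against day 0). Here both groups of day 4 were mostly above day 0. REST86, 605 bases from the start of Prlhr, was at 4.07%, 4.05% and 5.03% at day 0 and at 8.62%, 2.53% and 12.6% at Cre day 4 (adjusted p = 0.753). The other two were REST88, at 2.82% and 2.87%, and the methylated UMR given above.

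Position and sequence were set beside the loss as a description, over the 201 CpGs with at least 20% at day 0. The 97 intergenic CpGs lost 8.45% of their day 0 level, the 57 intronic CpGs 3.89% and the 47 CpGs in coding exons 3.99%, with overlapping Cre and day 0 samples in introns. Against mock the Cre levels were lower by 8.50%, 8.55% and 5.31%, without the gap between intergenic and intronic CpGs. CpGs with at most 2 other CpGs within 100 bases lost 11.8%, those with 3 to 5 lost 6.23%, those with 6 to 8 lost 6.43% and those with 9 or more 2.96%, and against mock they were lower by 12.2%, 7.74%, 9.44% and 4.69%. By the base before the CpG the loss was 7.75% after A, 7.22% after C, 4.41% after G and 4.68% after T. Against mock it was 10.1%, 6.49%, 8.37% and 6.08%, so that C and G changed places. Position, density and starting level were not separated from one another in these amplicons, and no test was made.

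REST binds a long bipartite element, and a core of each part was searched on both strands in the whole deposited window of each of 65 amplicons. These windows hold 244 to 589 bases, with a median of 400, and run past the stretches printed above, so a match can lie outside them. GGACAGC was present in 9 of 18 REST-bound amplicons (50%), in 4 of the 47 others (8.51%) and in 20% of all 65. CAGCACC was present in 8 of 18 (44.4%), in 2 of 47 (4.26%) and in 15.4% of all. Among the 5 REST-bound amplicons that fell, 3 held GGACAGC (REST61, REST64 and REST79) and 2 held CAGCACC (REST64 and REST76). REST75 held neither in its deposited window.

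The later samples of the same time course, which share the day 0 samples, were mostly lower still. Over the 366 CpGs the mean at Cre day 8 was 34.6% ± 0.0976. LMR23 stood at 48.9% on day 8 and 22.8% on day 29, REST61 at 32.6% and 19.4%, REST75 at 36.2% and 25.7%, and LMR38 at 37.8% and 8.19%. At mock day 29 they were at 64.8%, 40.4%, 52.2% and 47.9%. All but REST61 were lower on day 8 than on day 4. The amplicons with nearly equal levels on days 0 and 4 stood at 69.8% (methylated UMR), 88.9% (metIsland21), 40.4% (LMR16), 68.0% (FMR8) and 75.9% (NP-specific LMR41) at Cre day 29.

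A second assay of the same series, hybrid capture (SureSelect) bisulfite sequencing, covered 239 of these CpGs in 38 amplicons. Its deposited levels join the replicates of a day, so they carry no error and were not tested. Its mean level went from 26.9% at day 0 to 25.0% at Cre day 4 over the 239 CpGs, 1.91 percentage points lower, with 177 CpGs lower, while the amplicon levels of the same CpGs were 31.4% and 28.0%. LMR23 went from 54.2% to 46.5%, REST75 from 45.4% to 39.7%, LMR38 from 47.6% to 39.8% and REST61 from 31.4% to 30.3%. All 4 were lower at day 4 by capture as well, REST61 by the least, on median coverages of 303 and 245 reads per CpG over all shared CpGs. Of the 15 amplicons that fell, 13 had captured CpGs, of which 12 were lower at day 4 by capture. UMR17 was higher, at 1.66% and 2.14%. Most of the other captured amplicons were lower as well, so this count does not set apart those that fell. Capture has no mock samples, so Cre and the change of culture cannot be told apart there. In the 71 captured CpGs of UMRs the level went from 2.50% to 2.00% by capture and from 3.94% to 2.30% by amplicon. Of the amplicons with nearly equal levels on both days, metIsland21 went from 92.5% to 90.1% and LMR16 from 71.4% to 67.5% by capture, and the methylated UMR from 84.4% to 85.8%. LMR81, which was higher at Cre day 4 by amplicon, went from 9.15% to 18.6% by capture at 2 CpGs. At the 2 captured CpGs of FMR4 the level went from 75.8% to 78.5% by capture and from 84.7% to 80.7% by amplicon.

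The parental line with intact TET genes, labelled WT, was higher, not lower, after the same 4 days. Over the 345 CpGs with a level in all 18 samples, the TTKO means were 39.7% ± 0.50 at day 0, 36.7% ± 0.745 at Cre day 4 and 40.5% ± 1.36 at mock day 4, and the WT means were 26.5% ± 0.474, 31.7% ± 1.18 and 37.1% ± 2.40. In WT cells 17 of 396 CpGs (4.29%) rose from day 0 to Cre day 4 and 17 of 381 (4.46%) from day 0 to mock day 4 in the quasi-binomial model. The change from day 0 to Cre day 4 was 8.19 percentage points lower in TTKO than in WT cells over 357 CpGs (two-sided exact permutation test of treatment labels within each line, p = 0.005, the smallest it can give). At 35 CpGs (9.80%) the change was lower in TTKO cells and at 1 (0.280%) higher at an adjusted p under 0.05. The count over both directions ranged from 0 to 72 when 1 sample was left out. With the mock samples of day 4 in place of day 0 in both lines, 0 of 345 CpGs passed in the quasi-binomial model, 28 had an unadjusted p under 0.05, and the mean difference was 1.65 percentage points (exact permutation p = 0.64).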

How the data were processed

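Amplicon bisulfite libraries from 9 TTKO samples (day 0, Cre day 4 and mock day 4, 3 each) were used, with WT libraries of the same days for 1 contrast and later TTKO days as description. According to the methods and the submitters' processing notes, the authors aligned MiSeq reads to mm9 with Rbowtie in QuasR and called levels with AmpliconBiSeq, and levels under 100 reads were set to missing. The authors deposited 1 table for TTKO and 1 for WT cells, each with a coverage count and a methylation level as a fraction per CpG and sample. Level times coverage gave a whole count of methylated reads in 100% of 31338 values (tolerance 1e-06). The SureSelect table was deposited by the authors with levels in percent and coverage counts per day, the replicates joined. The authors' own columns of fitted rates, their confidence values and their TET activity estimates were not used.

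Methylated and unmethylated counts, each plus 0.5, were fitted per CpG or summed per amplicon in R 4.3.3, using logistic regression with quasi-binomial errors (two-sided), and dispersions were moderated by squeezeVar of limma 3.58.1 and held at 1 or more. P-values were adjusted by Benjamini-Hochberg over all features fitted, with a threshold of 0.05. An amplicon's printed level is the mean over its CpGs, while the model weights CpGs by reads. Mean levels were compared by two-sided exact permutation of samples, in python 3.11.15. The model was tested on simulated data. CpGs were named by these rules: those past the threshold with separate groups, the largest and smallest relative change per class among CpGs of at least 20% at day 0, the same for 5 amplicons each with 3 or more CpGs, and 5 CpGs by size of the contrast with WT. Amplicons past the threshold, FMR4, LMR24, LMR35, LMR81, REST69, REST80, REST86 and REST88 were named after their values were seen. Amplicon tests with the mock samples, the WT tests within the line and the contrast with mock in place of day 0 were also added after the data were seen. The comparison, its members and the lists were chosen with earlier results of these data known. Genes, positions and starts come from the protein-coding genes of GENCODE M1 on the same build, and other genes were not considered. Alternatives were leaving out each sample, a replicate block, limma on log2 odds, coverage minimums of 500 and 1000 reads, medians in place of means, each amplicon counted once, and a dispersion over 13 TTKO groups. One amplicon past the threshold is counted but not reported here by name.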

Additional observations from a re-analysis of the deposited data

Results flagged for a closer look

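The change from day 0 to Cre day 4 differed between TTKO and WT cells, by a test of the difference itself, at 36 CpGs (quasi-binomial model, 35 lower and 1 higher in TTKO cells) and in the mean over 357 CpGs, which was -8.19 percentage points (exact permutation p = 0.005, the smallest it can give). With mock day 4 in place of day 0 in both lines, the mean difference was 1.65 percentage points (exact permutation p = 0.64) and 0 CpGs passed. The count of 36 ranged from 0 to 72 when 1 sample was left out. The 5 CpGs with the largest differences among the 36 were at chr4:153282007 in REST61 (-34.6 percentage points), chr5:150291065 and chr5:150291085 in REST75 (-34.4 and -26.8), chr7:3349940 in ES-specific LMR32, within an intron of Cacng7 (-27.5), and chr13:107863525 in LMR23 (-26.6).

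At chr4:153282007 the TTKO means were 70.2% at day 0, 52.1% at Cre day 4 and 71.8% at mock day 4, and the WT means 13.2%, 29.7% and 35.6%. At chr5:150291065 they were 49.3%, 22.7% and 46.8% in TTKO cells and 16.9%, 24.7% and 42.3% in WT cells. At chr5:150291085 they were 58.3%, 41.8% and 52.5% against 5.86%, 16.1% and 42.8%. At chr7:3349940, covered by as few as 148 reads, they were 41.4%, 30.8% and 49.3% against 13.6%, 30.4% and 63.3%. At chr13:107863525 they were 65.5%, 41.3% and 62.5% against 18.3%, 20.6% and 24.5%. At all 5 CpGs the WT mock mean stood above the WT day 0 mean, at chr13:107863525 by less than the SD of the mock samples (21.1). The part of culture after transduction in this difference was not tested beyond the exchange of mock for day 0 samples.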

How the results depend on the processing

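Exchanging mock for day 0 samples turned the TTKO minus WT difference from -8.19 to 1.65 percentage points and took its 36 called CpGs to 0. It also reversed the log2 odds ratio of that contrast to 0.80 at chr5:150291085 and to 1.16 at chr7:3349940. With medians over CpGs the differences were -4.27 (Cre against day 0), 3.05 (mock against day 0), -7.24 (Cre against mock) and -12.3 (TTKO minus WT), and with at least 1000 reads the last was -6.32. The relative loss at CpGs of at least 20% was 8.28% with each amplicon counted once and 12.9% for CpGs from 20% to 80%. With each amplicon counted once the difference was -3.31 percentage points in REST-bound LMRs and -1.97 in UMRs. The differences of the methylated island and the methylated UMR changed sign when single samples were left out, from -0.779 to 0.528 and from -1.59 to 2.34 percentage points. In the same way NP-specific LMRs ranged from -1.78 to -0.27 and CTCF-bound LMRs from -8.55 to -3.73.

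Counts of calls were less stable. The CpG count for Cre against day 0, 1 as reported, was 2 with limma, 5 with at least 1000 reads and 0 to 16 when a sample was left out, 16 without Cre replicate 3 and 0 without any day 0 sample or Cre replicate 2. The amplicon count, 15, was 8 to 16 when a sample was left out, the lowest without Cre replicate 1, and 19 with limma. For mock against day 0 the 3 amplicons became 0 or 1 without any single sample, and for Cre against mock limma called 2. The 36 CpGs of the contrast with WT ranged from 0 without WT day 0 replicate 2 to 72 without WT Cre replicate 2. Of its named CpGs, chr13:107863525 no longer passed under 10 of 17 alternatives (adjusted p up to 0.889), and chr7:3349940 under 7 of 15 beside the reversal. The cause of these shifts was not tested.

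A replicate block gave 0 CpGs and 12 amplicons for Cre against day 0, 0 amplicons for mock against day 0 and 17 CpGs for the contrast with WT. Under it REST64 (adjusted p = 0.0633), UMR15 (0.0941) and UMR20 (0.0583) no longer passed. The labels do not say whether replicate numbers pair these samples. The deviations of same-numbered day 0 and Cre samples correlated at -0.156, 0.0740 and -0.117. Those of same-numbered mock and Cre samples correlated at 0.221, -0.0402 and 0.0751. With 3 samples per group these values cannot decide the question. The exact permutation test of 3 against 3 samples cannot go below p = 0.1. Median coverage per CpG was lowest in Cre replicate 3, at 2556 reads, and the limit set by depth was not tested.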
